A study of Gallus gallus and Columba livia with 18 samples.

Results

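Crystallins are the soluble proteins that fill the lens of the eye, and 6 gene symbols of this kind were followed here through early retinal development in the pigeon (Columba livia) and the chicken (Gallus gallus). The symbols are ASL1, CRYAA, CRYAB, CRYBB1, CRYBA4 and CRYM, and the members were chosen by name, every row of a symbol being taken. They gave 6 of 16652 rows in the pigeon table and 6 of 24708 rows in the chicken table, so 12 of 41360 rows in both. No pigeon row carried the name ASL1, while CRYBA4 stood in 2 pigeon rows.

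Whole retinas were dissected from embryos of either bird incubated at 37 °C, with no treatment and no genetic change, and mRNA was sequenced. The stages were E3 (embryonic days 3 to 3.5), E5 (days 5 to 5.5) and E8 (days 8 to 8.5), with 3 libraries per species and stage, 18 libraries in all, each from 1 to 6 retinas. The deposited value is FPKM, fragments per kilobase of gene model scaled to the number of mapped fragments, given as 1 pooled value per gene and stage. No value here therefore has an SD or a replicate check, and no test was possible. The number of reads per library was not used here.

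As background, alpha-crystallins (CRYAA, CRYAB) are small heat shock proteins that hold unfolded proteins in solution, and CRYAB is also made outside the lens. Beta-crystallins (CRYBB1, CRYBA4) are structural proteins of lens fibres. Delta-crystallin, the main lens protein of birds, was recruited from the urea cycle enzyme argininosuccinate lyase. In chicken it is encoded by ASL1, beside its near-identical copy ASL2, which keeps the enzyme activity. CRYM, or mu-crystallin, is a lens protein in some marsupials and elsewhere a cytosolic protein that binds thyroid hormone.

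A change is the later stage minus the earlier stage on the log2(FPKM + 1) scale, which understates changes of low values. A row was compared when it reached an FPKM of at least 1 at some stage and was above 0 at both compared stages, since a listed 0 can be a failed estimate. It was counted as higher or lower when the change was at least 1 in size. Of the 6 pigeon member rows 5 reached that floor, and of the 6 chicken rows 4 did. The tables were normalised separately, so levels of the 2 species are set side by side and not compared.

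CRYM was highest at E8 in both birds. In pigeon, CRYAB and CRYM were higher at E8 than at E5, and CRYAA was low at E3 and E5 and listed at 0 at E8. In chicken, ASL1 and CRYAA were lower at E8 than at E5, and CRYAB was nearly level. CRYBB1 and CRYBA4 stayed under 2 FPKM in every row and stage of both tables. From E5 to E8, 2 of 4 compared pigeon rows were higher and 0 lower, where 8.04% of all compared pigeon genes were higher and 7.25% lower. In chicken 0 of 4 were higher and 2 lower, where 4.53% of all compared genes were higher and 4.46% lower. The median change of the compared members was 1.07 in pigeon and -2.30 in chicken, where the medians over all genes were -0.00067 and -0.00113. These member medians are over different genes, so they are not set against each other. The pigeon rows were CRYAB, CRYM, CRYBB1 and a CRYBA4 row, and the chicken rows ASL1, CRYAA, CRYAB and CRYM. The symbols compared in both birds had positive changes in both. For CRYAB these were 3.05 in pigeon and 0.18 in chicken, and for CRYM 2.14 and 0.81. From E3 to E5, 1 of 5 pigeon rows was higher and 0 lower, where 1.51% of pigeon genes were higher and 1.36% lower. In chicken 1 of 4 was higher and 0 lower, where 1.97% of genes were higher and 1.00% lower. These shares of all genes apply to the counts of the gene lists below as well.

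**Figure D1:**
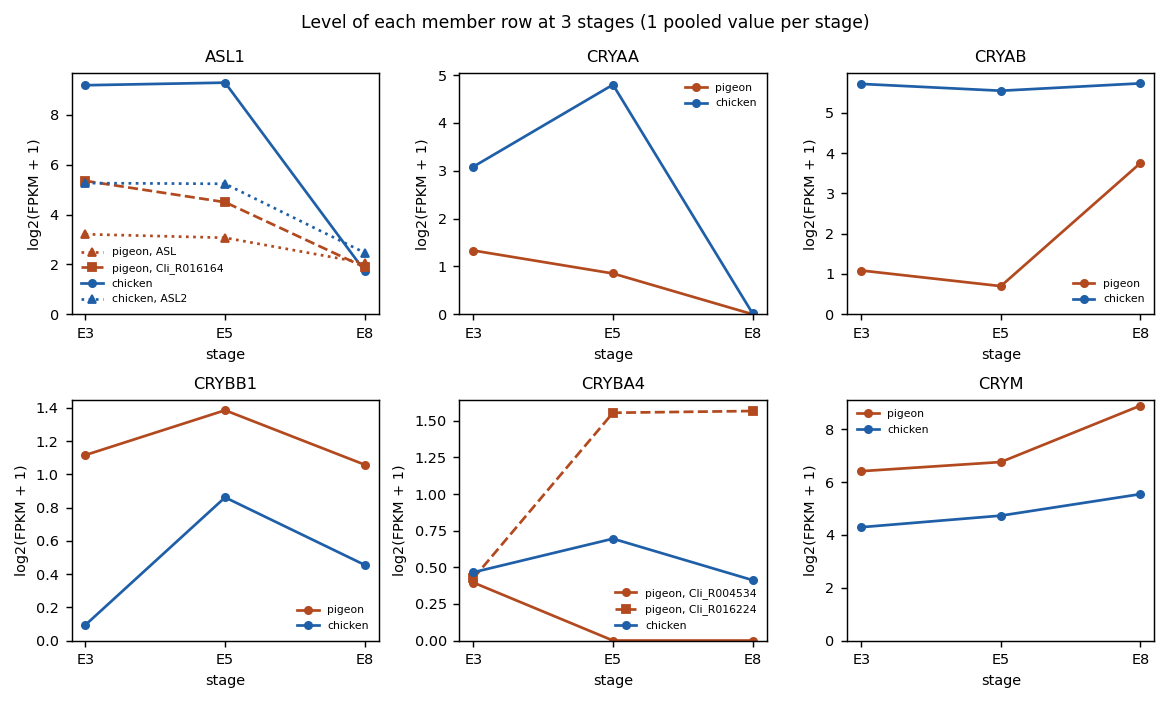
Level of every member row as log2(FPKM + 1) (vertical axis) at E3, E5 and E8 (horizontal axis), in pigeon (brown) and chicken (blue), each point being 1 pooled value. The ASL1 panel also holds pigeon ASL and Cli_R016164 and chicken ASL2. Chicken ASL1 drops to 2.33 FPKM at E8 and pigeon CRYM climbs to 474 FPKM, while the CRYBB1 and CRYBA4 panels have axes that end below 2.

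Delta-crystallin comes first among the lens proteins. Chicken ASL1 stands on chromosome 19 from position 4911916 to 4919749 (XLOC_008165), in coordinates of the deposited table (genome build not given in the sources used here). ASL1 was at 582 FPKM at E3, 625 at E5 and 2.33 at E8. The values at E3 and E5 were close, with a change of 0.10, and the E8 value was 268-fold lower than the E5 value. The change of -7.56 from E5 to E8 was the lowest of all 14540 chicken genes compared, and ASL1 kept that place with pseudocounts of 0.1 and 5. As a linear ratio the CRYAA difference was larger, as given with that gene. ASL1 ranked 174th of 24708 rows at E3, 164th at E5 and 10889th at E8. It held 90.7% of the summed FPKM of the 5 chicken crystallins other than CRYM at E3, 89.4% at E5 and 4.22% at E8. In bulk samples, fewer cells of a type and less RNA per cell cannot be told apart.

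ASL2, which encodes the active lyase, lies 5666 bases before ASL1 and was at 37.4, 36.6 and 4.53 FPKM at E3, E5 and E8 in chicken. Its change was -0.03 at the first step and -2.77 at the second, the 57th lowest change among the compared genes. The ratio of ASL1 to ASL2 was 15.6 at E3, 17.1 at E5 and 0.514 at E8, so the copy with the lower level at the first 2 stages had the higher one at E8. Reads of these near-identical genes may have been shared out between them in counting, by a method not stated in the labels or tables, and both values are uncertain for that reason. The next named gene on the other side, CRCP, a polymerase subunit gene 5765 bases from ASL1, had a change of -0.02 from E5 to E8. GUSB, a named gene before ASL2, had a change of -0.03.

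The pigeon table had 1 row named ASL, on scaffold94 from 2132416 to 2138646 (Cli_R016163), with 8.25, 7.38 and 3.16 FPKM at E3, E5 and E8. Its change from E5 to E8 was -1.01. The next row, Cli_R016164, from 2142882 to 2149196, carries only a protein identifier and no gene symbol. It lies 4235 bases after ASL and 8596 bases before CRCP, the same place in the order of genes that ASL1 has in chicken between ASL2 and CRCP. Cli_R016164 was singled out after its values were seen. It was at 39.7 FPKM at E3, 21.5 at E5 and 2.69 at E8, with changes of -0.85 and -2.61. The ratio of Cli_R016164 to ASL was 4.82 at E3, 2.92 at E5 and 0.853 at E8. Both ratios, in pigeon and in chicken, were above 1 at E3 and E5 and below 1 at E8. Whether this row is the pigeon delta-crystallin gene was not tested, since no pigeon sequence was used here.

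**Figure D2:**
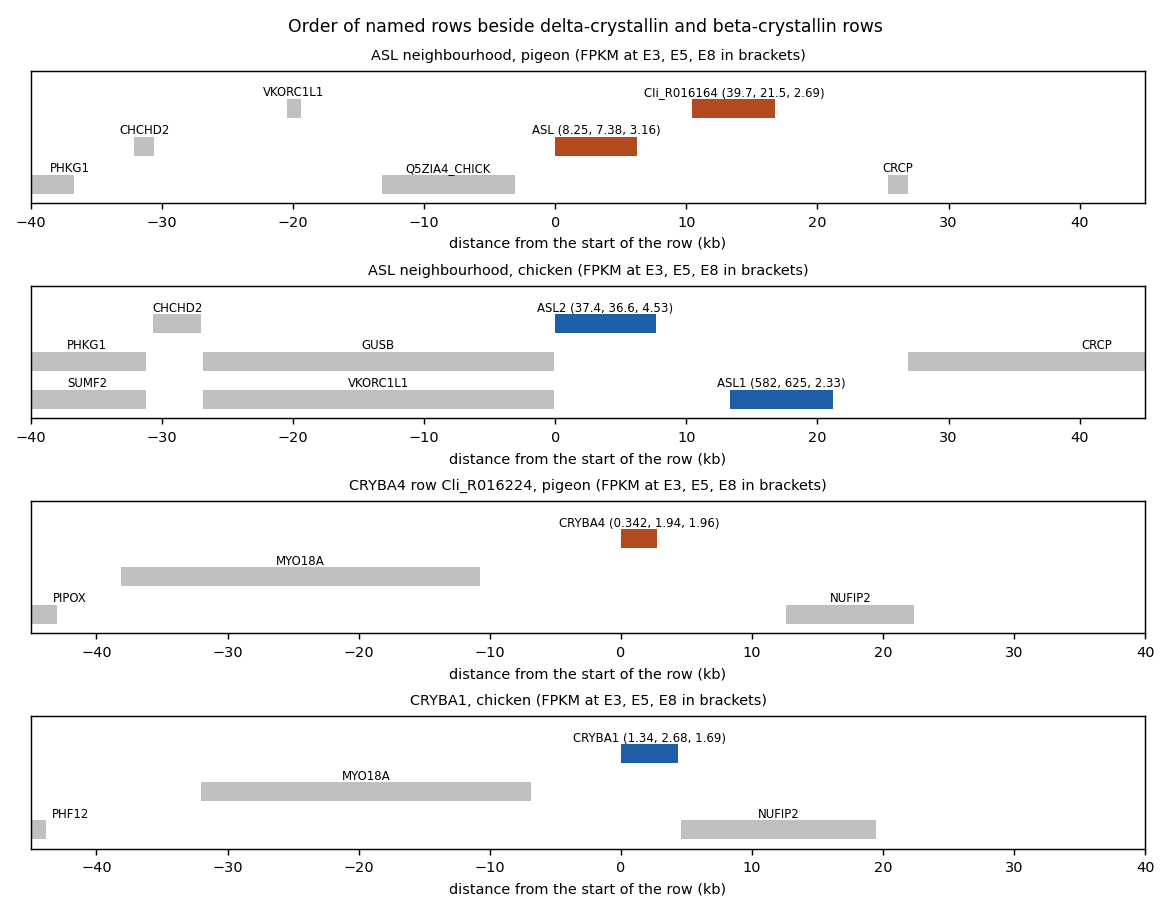
Order of named rows around pigeon ASL and chicken ASL2 (upper 2 panels) and around pigeon CRYBA4 row Cli_R016224 and chicken CRYBA1 (lower 2 panels). The horizontal axis is the distance in kb from the start of the central row, the vertical place within a panel has no meaning, and bars are loci as deposited. CRCP follows ASL and Cli_R016164 in pigeon and ASL2 and ASL1 in chicken, and MYO18A and NUFIP2 flank both beta-crystallin rows.

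Argininosuccinate lyase belongs to the arginine and urea cycle, and 12 genes of that pathway were followed as a list. None of 4 compared pigeon genes and none of 6 chicken genes passed 1 at either step. Of all compared genes, at most 8.04% were higher and at most 7.25% lower at a step in either species. SLC7A1 stood in 3 pigeon rows and is outside the pigeon count. From E5 to E8 its rows had changes of -0.38, 0.01 and -1.53, so the count depends on the rows left out. The list medians were -0.40 in pigeon and -0.10 in chicken at the first step, and -0.03 and -0.22 at the second. ARG2, the mitochondrial arginase, was at 171, 169 and 162 FPKM in pigeon and 119, 103 and 77.0 in chicken over the 3 stages. ASS1, whose enzyme makes the substrate of the lyase, was at 4.72, 2.43 and 3.55 FPKM in pigeon and at 0.427, 0.138 and 0.229 in chicken.

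CRYAA, the alpha-crystallin restricted mostly to lens, was at 1.52, 0.805 and 0 FPKM at E3, E5 and E8 in pigeon (scaffold68, 312396 to 314916, Cli_R013304). In units of the smallest nonzero value among pigeon models within 2% of the same length, here called smallest steps, these were 4.14, 3.05 and 0 steps. The smallest value was taken at each stage separately, so steps of different stages differ in size and are not subtracted. The pigeon values therefore rest on few fragments, and so does the change of -0.48 from E3 to E5. Chicken CRYAA was at 7.49, 26.9 and 0.0126 FPKM (chromosome 1, 113199309 to 113316116, XLOC_000779). It was higher at E5 than at E3 by 1.71, the 52nd highest of 14490 changes, and its change of -4.78 from E5 to E8 was the 6th lowest of 14540. This change was -7.90 with a pseudocount of 0.1 and -2.67 with 5, where it was the 2nd and the 17th lowest. On the linear scale the CRYAA value at E8 was 2130-fold lower than at E5, a ratio that rests on an E8 value close to 0. The chicken locus spans 116808 bases and the pigeon locus 2521, and whether the chicken locus takes in other transcripts was not tested. U2AF1 and SIK1 flank CRYAA in both tables. U2AF1, a splicing factor gene, had a change of 0.00 in pigeon and -0.22 in chicken from E5 to E8. SIK1, a kinase gene, had a change of -0.13 in pigeon and was higher by 1.11 in chicken at that step.

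For symbols listed once in both tables, the 2 changes can be set against each other as pigeon minus chicken. From E3 to E5 the CRYAA change was -0.48 in pigeon and 1.71 in chicken, a difference of -2.19. Only 0.150% of 5322 genes had a lower difference, and 2.63% of them differed by at least 1 in size. CRYAA could not be compared from E5 to E8, because its pigeon value at E8 is listed at 0.

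CRYAB, the alpha-crystallin that many tissues make, was at 1.12, 0.622 and 12.5 FPKM at E3, E5 and E8 in pigeon (scaffold77, 2152009 to 2155226, Cli_R014793). These values correspond to 3.08, 2.52 and 29.6 smallest steps, so the E8 value alone is well above the lowest step. The change of 3.05 from E5 to E8 was the 51st highest of 11820. It was 4.12 with a pseudocount of 0.1 and 1.64 with 5. Chicken CRYAB was at 51.6, 45.8 and 52.1 FPKM (chromosome 24, 6366654 to 6370600, XLOC_012189). Its changes were -0.17 and 0.18 over the 2 steps. From E3 to E8 the change was 0.01, or -0.02 with median-ratio scaling. It held a rank between 1889th and 2249th at all stages. The difference from E5 to E8 was 2.87, pigeon minus chicken, and 99.8% of 5304 genes had a lower one, where 8.26% differed by at least 1 in size. With a pseudocount of 5 this difference was 1.47. From E3 to E5 the difference was -0.22, or 0.03 with a pseudocount of 5.

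HSPB2, another small heat shock gene, neighbours CRYAB at 2011 bases in pigeon and 1752 bases in chicken and was low throughout. HSPB2 was at 0.717, 0.242 and 0 FPKM in pigeon and at 0.542, 0 and 0.179 in chicken. Of a list of 12 small heat shock and heat shock factor genes, none of the 4 compared in either species passed 1 at either step. HSF2, a heat shock factor, was at 254, 241 and 201 FPKM in pigeon and 90.4, 84.6 and 63.6 in chicken. HSPB1 was at or under 0.339 FPKM at all stages in both tables. In pigeon, HSF1 was at 80.6, 84.1 and 46.4 FPKM over the same stages, and HSPB3, a further small heat shock gene, at 1.52, 1.52 and 2.34.

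The beta-crystallin genes CRYBB1 and CRYBA4 are neighbours in both birds, 4194 bases apart on pigeon scaffold20 and 2135 bases apart on chicken chromosome 15. Pigeon CRYBB1 (1539631 to 1543300, Cli_R004535) was at 1.17, 1.61 and 1.08 FPKM, or 5.11, 10.4 and 4.14 smallest steps. Its changes of 0.27 and -0.33 are small beside such low counts of steps. Chicken CRYBB1 (7401161 to 7403452, XLOC_006717) was at 0.0675, 0.816 and 0.371 FPKM and stayed under the floor of 1. It was highest at E5, as the pigeon row was. Chicken CRYBA4 (7405588 to 7406723, XLOC_006516) was at 0.381, 0.619 and 0.331 FPKM, also under the floor and also highest at E5.

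Of the 2 pigeon CRYBA4 rows, the one beside CRYBB1 (1534232 to 1535436, Cli_R004534) was at 0.316, 0 and 0 FPKM, and its E3 value is 1.03 smallest steps. The other, on scaffold94 from 3305770 to 3308526 (Cli_R016224), was at 0.342, 1.94 and 1.96 FPKM, or 1.04, 8.71 and 5.22 steps. Its change of 1.13 from E3 to E5 passed 1 but starts from about 1 step. This change was 2.20 with a pseudocount of 0.1 and 0.38 with 5. MYO18A and NUFIP2 are the nearest named rows on either side of Cli_R016224. The same pair flanks chicken CRYBA1, a further beta-crystallin gene with 1.34, 2.68 and 1.69 FPKM. No pigeon row was named CRYBA1, and whether Cli_R016224 belongs to that gene was not tested. The pigeon row named CRYBA2 on scaffold20 (Cli_R004544) lay beside ADRBK2, as chicken CRYBB3 does, and was listed at 0 at all stages. Another pigeon row named CRYBA2 (Cli_R007667) lay near CCDC108, as chicken CRYBA2 does, and was at 1.03, 0.340 and 0 FPKM. These placements were looked up after the values were seen.

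**Figure D3:**
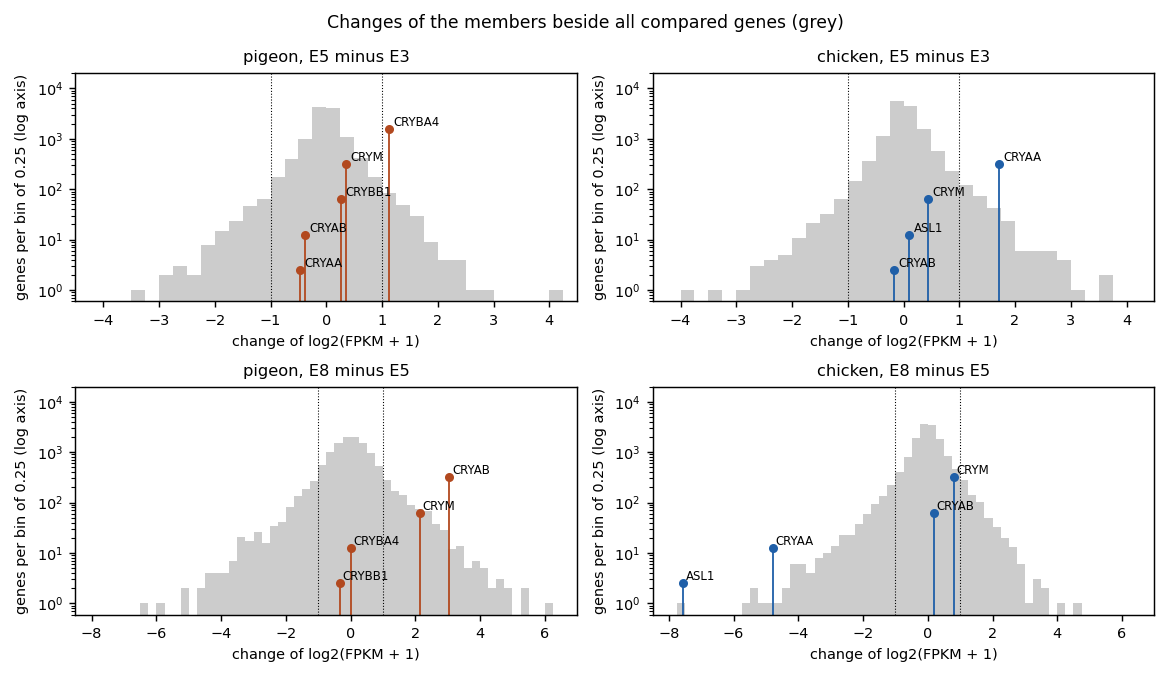
Changes of log2(FPKM + 1) of the compared members (coloured stems with names) over the histogram of all compared genes (grey, counts per bin of 0.25 on a log axis), for E5 minus E3 (top) and E8 minus E5 (bottom), pigeon left and chicken right. Dotted lines mark -1 and 1, and the height of a stem has no meaning. Chicken ASL1 at -7.56 lies at the left end of all genes, and pigeon CRYAB at 3.05 and CRYM at 2.14 lie in the right tail.

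CRYM, which binds thyroid hormone inside the cell, was the most abundant member in pigeon at every stage. It was at 84.1, 107 and 474 FPKM at E3, E5 and E8 in pigeon (scaffold209, 2534296 to 2542651, Cli_R004898), or 406, 765 and 1951 smallest steps. Pigeon CRYM ranked 2684th, 2099th and 422nd of 16652 rows. Its changes were 0.35 at the first step and 2.14 at the second, and the second change, 4.43-fold on the linear scale, was the 222nd highest of 11820. Chicken CRYM was at 18.6, 25.5 and 45.6 FPKM (chromosome 14, 15795709 to 15803734, XLOC_006234), and ranked 5067th, 3975th and 2191st. Its changes were 0.44 and 0.81, and from E3 to E8 they were 2.48 in pigeon and 1.25 in chicken. Over that span 3 of 4 compared pigeon member rows were higher and 0 lower, where 9.39% of pigeon genes were higher and 8.58% lower. In chicken 1 of 4 was higher and 2 lower, where 6.65% of genes were higher and 5.29% lower. The higher pigeon rows include CRYBA4 row Cli_R016224, whose E3 value is 1.04 smallest steps. Pigeon CRYAA, at 1.52 FPKM at E3 and 0 at E8, was not compared over that span. With values of 0 included, 4 pigeon member rows passed 1 in either direction. The CRYM change from E5 to E8 was larger in pigeon by 1.32, and 97.1% of 5304 genes had a lower difference. UQCRC2, a respiratory chain subunit gene next to CRYM in both tables, had a change of 0.27 in pigeon and 0.02 in chicken at this step, and ANKS4B on the other side was under 1 FPKM in both.

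Genes of thyroid hormone handling were followed as a list of 19 beside CRYM. From E5 to E8, 2 of 4 compared pigeon genes and 2 of 11 chicken genes were higher and none lower, with medians of 0.72 and 0.05. From E3 to E5, 1 of 4 and 3 of 11 were higher. Of all compared genes, 8.04% in pigeon and 4.53% in chicken were higher from E5 to E8. From E3 to E5 these shares were 1.51% and 1.97%. RXRG, a partner of the thyroid hormone receptors, was at 3.45, 13.8 and 226 FPKM in pigeon and 1.45, 7.14 and 70.4 in chicken. RXRG is also in the list of retinal progenitor and neuron markers below. THRB, a receptor for thyroid hormone, was at 1.69, 6.00 and 44.4 FPKM in chicken. SLC7A5, an amino acid transporter that also carries thyroid hormone, was at 40.9, 42.2 and 25.8 FPKM in chicken. SLCO1C1, another transporter, was at 0.190, 0.0619 and 1.77 FPKM in pigeon, so its change of 1.38 from E5 to E8 starts near 0. RXRG and SLCO1C1 are the 2 pigeon genes counted as higher at that step. DIO2, the enzyme that activates the hormone, was at 0.225, 1.63 and 1.24 FPKM in chicken and listed at 0 in pigeon. DIO3, which inactivates it, stood in 2 pigeon rows, at 38.1, 13.5 and 52.6 FPKM and at 1.44, 0.709 and 0.826. SLC16A10 also stood in 2 pigeon rows, with changes of -0.72 and 0.95 from E5 to E8. Both symbols are outside the pigeon counts. In chicken the SLC16A10 changes were -0.67 and -0.56 over the 2 steps. Chicken THRA, the other receptor gene, was listed at 0 throughout.

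To find genes of like course, candidates were named genes other than the members, listed once, above 0 at all stages and reaching 5 FPKM. Among these, the genes nearest in course to each member were found by the distance between the 2 changes, over 3 stages of 1 species. For pigeon CRYM they were SYT4, SYCP1, C1ORF183 and DOCK3, at distances from 0.088 to 0.108 among 7722 genes. For chicken CRYM they included PCDH19, MTUS1 and DAB2IP, at 0.030 to 0.046 among 8354. Pigeon CRYAB was nearest to NECAB3, C9ORF4, NRIP3 and BAI3, at 0.228 to 0.303, and chicken CRYAB to CLMP, PER3, ZNF770 and FGD3, at 0.003 to 0.011. Among the candidates, chicken CRYAA was nearest to DCT (0.553), a locus without a symbol (0.620), PITX1 (0.756) and HBZ (0.874). DCT is a melanin enzyme gene and HBZ a globin gene. Chicken CRYBA2, no candidate because it is listed at 0 at E8, had a change of 1.56 from E3 to E5, where that of CRYAA was 1.71. For the same reason CRYBA2 was not compared from E5 to E8. No chicken candidate was close to ASL1, and LUM and FOXC2 were among its 4 nearest at 2.20 and 2.55. A distance over 3 points is a description of these values.

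Other lens genes give the setting of the members. The list of other crystallins had 17 symbols, of which 3 were compared in pigeon and 7 in chicken between E3 and E5. None and 1 of these were higher, with medians of 0.00 and 0.27, and the chicken one was CRYBA2, at 10.3, 32.4 and 0 FPKM. Pigeon CRYBA2 stood in 2 rows and is outside the pigeon count. From E5 to E8, 1 of 3 pigeon genes (ASL) and 1 of 6 chicken genes (ASL2) were lower, with medians of -0.14 and -0.26. CRYZ, a quinone reductase that is a crystallin in some mammals, stayed at 17.8 to 19.6 FPKM in pigeon and 20.9 to 22.6 in chicken.

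Lens fibre and membrane genes, a list of 15, held 4 compared genes in pigeon and 8 in chicken. From E3 to E5, 0 of 4 and 2 of 8 were higher, with medians of -0.06 and 0.56. From E5 to E8, 1 of 4 and 3 of 8 were lower, with medians of -0.41 and -0.38. BFSP1, a lens filament protein, was at 0.406, 0 and 0.160 FPKM in pigeon and at 0.999, 3.94 and 0.356 in chicken. GJA3, a lens connexin gene, was at 0.557, 0.169 and 0 FPKM in pigeon and at 0.627, 1.86 and 0.0444 in chicken. MIP, the lens water channel, was at 6.04, 4.99 and 1.20 FPKM in pigeon. The BFSP1 and GJA3 values of chicken were highest at E5, as CRYAA was, and those of pigeon at E3, as CRYAA was there. Pigeon BFSP1 and GJA3 stayed under the floor of 1 FPKM and were not compared, and pigeon CRYAA rests on few smallest steps. The stage of the highest value is therefore uncertain for all of them in pigeon. GRIFIN, a galectin-related lens gene, was highest at E8 in chicken, at 0.338, 1.07 and 3.07 FPKM, and in pigeon it was at 1.18, 0 and 0.695. VIM and TDRD7, which are made in many cells, and the lens nuclease gene DNASE2B had changes under 0.5 in size at each step in chicken, where DNASE2B was highest at E8 with 13.8 FPKM. CAPRIN2 was highest at E3 in chicken, at 38.7, 28.6 and 18.4 FPKM, and in pigeon it was at 5.32, 5.87 and 5.57.

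Among 16 lens transcription factors, 3 were compared in pigeon and 11 in chicken at the first step, and 3 and 10 at the second. At the first step 0 of 3 and 2 of 11 were lower, with medians of 0.23 and -0.40, and at the second 1 of 3 and 1 of 10 were higher and 0 and 2 lower. FOXE3, a factor of lens epithelium, was at 2.55, 1.22 and 0 FPKM in chicken, and PITX3, a factor of lens and eye, at 9.72, 3.82 and 0.284. PITX3 stood in 2 pigeon rows, at 6.93, 8.51 and 1.85 and at 51.8, 50.1 and 0 FPKM. GATA3 also stood in 2, at 4.67, 1.83 and 0.129 and at 6.93, 1.22 and 0.245 FPKM. Both GATA3 rows were lower at the first step, and neither PITX3 row passed 1 there. At the second step the first-named row of either gene was lower, with changes of -1.33 for GATA3 and -1.74 for PITX3. Such symbols are outside the pigeon counts, which rest on PROX1, SOX2 and SIX3 and depend on the rows left out. PROX1, needed for lens fibres and also made by retinal cells, was highest at E8, at 0.944, 1.28 and 8.99 FPKM in pigeon and 1.75, 1.28 and 4.90 in chicken. The retina itself also makes SOX2, PAX6, SIX3 and MEIS genes of this list.

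**Figure D4:**
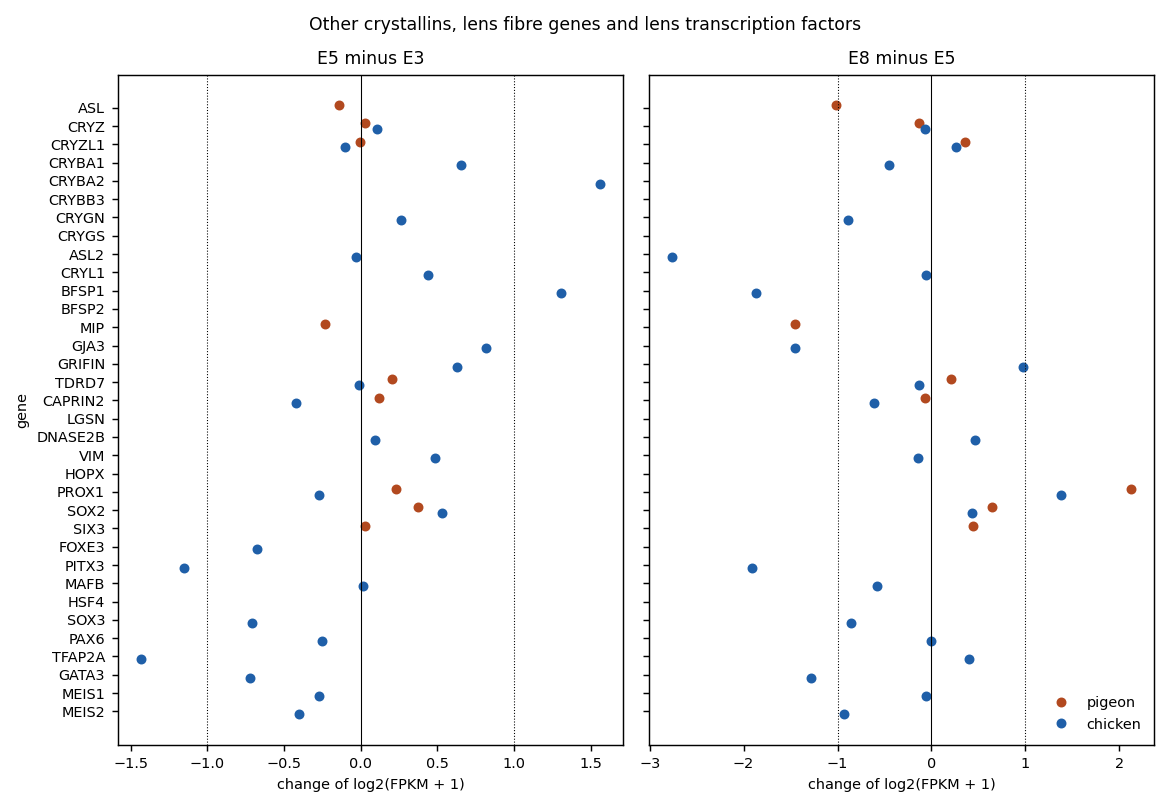
Changes of log2(FPKM + 1) for other crystallins, lens fibre and membrane genes and lens transcription factors that were listed once and are reported here (rows), for E5 minus E3 (left) and E8 minus E5 (right), in pigeon (brown) and chicken (blue). Genes with no point were not compared, and dotted lines mark -1 and 1. Chicken BFSP1 and GJA3 lie right of 0 in the left panel and left of -1 in the right panel.

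In chicken, 3 of 4 marker lists of tissues around the retina summed highest at E5 and lowest at E8, as CRYAA was. Pigment epithelium markers had 9 compared genes of 14 in chicken. At the first step 7 of these were higher and at the second all 9 were lower, and the sum over the list was 69.0, 266 and 26.8 FPKM at E3, E5 and E8. PMEL was listed at 0 throughout, and TTR at E3 and E8. Periocular mesenchyme and cornea markers summed to 175, 271 and 82.8 FPKM over 12 of 15 genes, none at 0, with 3 higher and 1 lower at the first step and 1 higher and 7 lower at the second. Erythroid genes, all 5 of them higher and then all lower, summed to 798, 1927 and 123 FPKM, and surface ectoderm markers to 107, 38.0 and 17.1 FPKM with KRT5 and KRT8 at 0. For chicken ASL1 and CRYAA the part of these tissues was not tested.

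In pigeon the same lists summed to 122, 145 and 5.77 FPKM for 8 pigment epithelium markers, with LRAT at 0 at E5 and E8 and MLANA at 0 at E8. They summed to 186, 152 and 33.2 FPKM for 4 mesenchyme markers, 3058, 1122 and 53.6 for 2 erythroid genes, and 14.3, 14.2 and 9.67 for 3 surface ectoderm markers, of which KRT15 was at 0. From E5 to E8 all 5 compared pigment markers and both globin genes were lower, as were 3 of 4 mesenchyme markers, while PDGFRA was higher. Symbols in more than 1 pigeon row are outside these sums and counts, among them the mesenchyme markers COL5A1 and KERA. The COL5A1 rows went from 29.4 to 73.9 and from 44.7 to 99.9 FPKM at this step. The KERA rows went from 23.3 to 3.92 and from 107 to 83.6 FPKM, so the mesenchyme sum depends on the rows left out. The surface ectoderm sum does too, since the EPCAM rows went from 117 to 120 and from 5.09 to 6.19 FPKM. The highest KRT14 row went from 3.80 to 1.26 FPKM. Pigeon CRYAB and CRYM were higher at this step. Markers of retinal progenitors and neurons summed to 702, 819 and 3396 FPKM over 8 pigeon genes and 715, 886 and 1745 over 13 chicken genes, with none at 0. Of these, 6 of 8 in pigeon and 6 of 13 in chicken were higher at E8 than at E5. Single genes weigh heavily in these sums. ATOH7 alone was at 37.5, 133 and 1827 FPKM in pigeon and at 22.4, 117 and 555 in chicken. In pigeon SIX6 was at 493, 449 and 584 FPKM, and from E5 to E8 SIX6 and SOX2 had changes of 0.38 and 0.64. At that step the CRYM change was 2.14 in pigeon and 0.81 in chicken, and the part of these cells in it was not tested.

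**Figure D5:**
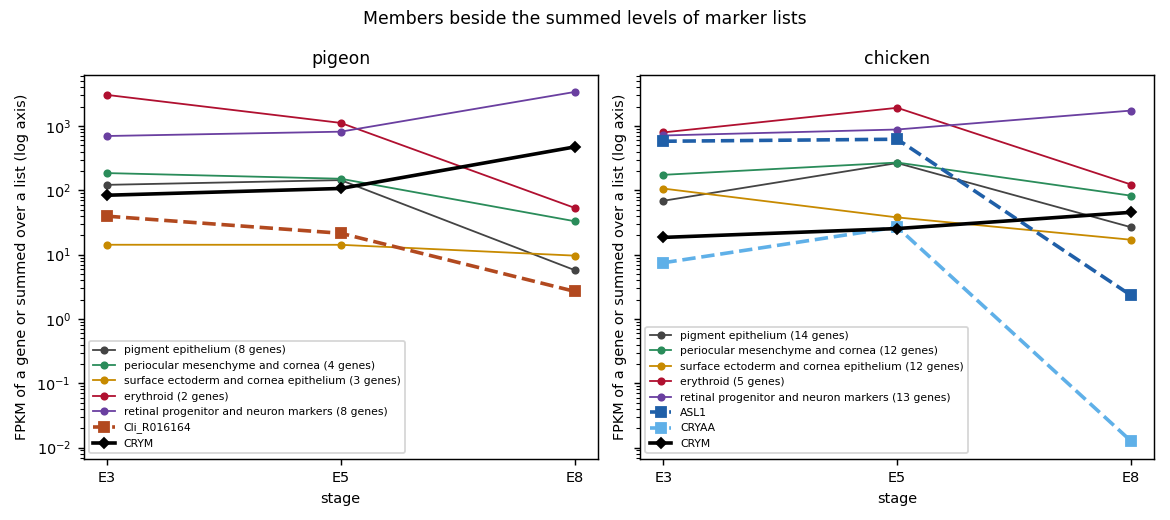
FPKM (log axis) at E3, E5 and E8 of single genes (thick lines) and summed over marker lists (thin lines, numbers of genes in the legends), pigeon left and chicken right. In chicken, ASL1 goes down to 2.33 FPKM and CRYAA to 0.0126 FPKM at E8, both below each marker sum there, while CRYM and the retinal marker sum are both highest at E8 in both birds. A value of 0 cannot be drawn on a log axis, and pigeon CRYAA is left out.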

How the data were processed

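The deposited values are FPKM per gene that the authors computed, with 1 column per stage and table, per the file headers. TopHat2, Bowtie2, Cufflinks and Cuffdiff were used, per the submitters' processing notes (versions, builds and annotations not given in the sources used here). Libraries were made from 1 µg of total RNA with a stranded mRNA kit, per the labels' protocols. Model lengths, another deposited column, exist for pigeon alone. Starts were taken as counted from 0 and were raised by 1. Model lengths bear this out for pigeon, and for chicken it is assumed.

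Groups came from the labels. limma on values per library, planned for such files, could not be used on pooled columns. Changes of log2(FPKM + 1) were computed over all rows in Python 3.11.15 with numpy 2.4.6 and pandas 2.3.3, and figures were drawn with matplotlib 3.10.9. The calculation returned large changes that were put into genes of higher level in a copy of the data. That check of the arithmetic does not bear on low values or on the spread between libraries. Lists of 11 kinds used symbols listed once, or an older symbol from the RefSeq table of chicken gene names (assembly GRCg7b, names and no coordinates). The members and lists were chosen with earlier results of these data known. All members were named, with ASL, ASL2 and HSPB2, the 4 nearest genes in course per member with 5 FPKM or more, and genes of the lists, some of which are given only in counts. Loci without a symbol among the nearest genes are not named. Some genes of the lists and among the nearest genes are not reported here.

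Alternatives were pseudocounts of 0.1 and 5, no filter, a filter of 5 FPKM, median-ratio scaling and quantile normalisation. Values of 0 included was chosen after seeing the data.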

Additional observations from a re-analysis of the deposited data

Results flagged for a closer look

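CRYAA had changes of opposite sign in the 2 species from E3 to E5, -0.48 in pigeon and 1.71 in chicken, with a difference of -2.19, pigeon minus chicken. The difference was not tested, since each stage has 1 pooled value per species. The pigeon values rest on 4.14 smallest steps at E3 and 3.05 at E5.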

How the results depend on the processing

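No paired analysis was possible because each stage has 1 pooled column per species, and for the same reason no library could be left out. Of 202 recomputed member changes and species differences, 197 kept their direction and their side of 1. Among these, 30 with no filter, 22 with a filter of 5 FPKM and 30 with values of 0 included could not move. Those settings alter which rows are compared and leave each value as it was. The CRYBA4 value of Cli_R016224 fell short of 1 with a pseudocount of 5, at 0.38 from E3 to E5 and 0.38 from E3 to E8, so that 0 pigeon members passed 1 between E3 and E5. With a filter at 5 FPKM, which that gene does not reach, 0 passed as well. With a pseudocount of 5 the pigeon minus chicken difference of CRYAB from E3 to E5 was 0.033, against -0.22 with a pseudocount of 1. Chicken CRYAB from E3 to E8 was at -0.019 with median-ratio scaling, against 0.01. Pigeon CRYBB1 over that span was at 0.0092 with quantile normalisation, against -0.058. The cause of these 3 reversals was not tested, and each value is close to 0.

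The changes of pigeon CRYAA, CRYAB and CRYBB1 from E3 to E5, all under 1 in size, also moved by over 1.5 times with either pseudocount, to -0.84, -0.76 and 0.43 with 0.1 and -0.17, -0.12 and 0.10 with 5. So did chicken CRYAA from E5 to E8, at -7.90 with 0.1 and -2.67 with 5, against -4.78. From E3 to E8 chicken CRYAA was at -6.08 and -1.32, against -3.07. Pigeon CRYBB1 was at -0.53 and -0.12 from E5 to E8, against -0.33, and at -0.10 and -0.02 from E3 to E8, against -0.058. Counts over all genes depended on the pseudocount, which by its construction shrinks or widens the changes of low genes. With a pseudocount of 0.1, 693 pigeon genes passed 1 from E3 to E5, against 344 with a pseudocount of 1. In chicken 1134, 2421 and 2938 passed from E3 to E5, E5 to E8 and E3 to E8, against 431, 1306 and 1725. The species difference from E3 to E5 passed 1 in 266 genes, against 140. With a pseudocount of 5, 113, 1049 and 1227 pigeon genes passed, against 344, 1807 and 2118, and 123, 421 and 626 chicken genes. The species difference then passed in 38 genes at the E3 to E5 step and 208 at the next, against 140 and 438. With a filter at 5 FPKM, which leaves fewer genes, 801 and 1077 chicken genes passed from E5 to E8 and E3 to E8, and the species difference passed in 74 and 265. With values of 0 included, a setting added after seeing the data, 558 pigeon genes passed from E3 to E5. The pigeon values of CRYAA, CRYBB1 and CRYBA4 rest on few smallest steps, which limits what their changes can show.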
